A study of Bos grunniens x Bos taurus and Bos grunniens with 6 samples.

Results

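The ADAM (a disintegrin and metalloprotease) and ADAMTS (ADAM with thrombospondin motifs) genes were examined in testis RNA of cattle-yak and yak. Every gene identifier whose symbol was ADAM, ADAMTS or ADAMTSL followed by a number was taken as a member, with each identifier kept as its own gene. This gave 52 of the 18918 genes of the expression table, namely 29 ADAM, 18 ADAMTS and 5 ADAMTSL (ADAMTS-like) genes under 45 symbols. Several symbols stood on more than 1 identifier: ADAM20 on 5, Adam1a on 3 and ADAM30 on 2. Genes of 1 symbol may share reads, so the level of any single copy is uncertain, and how alike their sequences are was not tested.

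Testis tissue was compared between 3 male Gannan yaks and 3 male cattle-yaks, all 4 years old, with 1 library per animal. Cattle-yaks are the F1 offspring of a Jersey cattle sire and a Gannan yak dam, and the study compared them because the hybrid males do not make sperm. The cattle-yak animals are TES5, TES6 and TES7, and the yak animals are Yak8, Yak9 and Yak10. The groups came from different counties. Per the methods, yak testes were taken after euthanasia and cattle-yak testes by castration, whereas the sample labels name castration for all, and the reads of both groups were mapped to the yak genome. An effect of the cross therefore cannot be told apart from one of place, sampling or mapping.

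ADAM proteins are membrane-anchored, with a metalloprotease domain followed by a disintegrin domain. One set of them (ADAM10 and ADAM17 are the best known) is found in most tissues and cuts growth factors, cytokines and receptors off the cell surface, whereas another set, including ADAM1, ADAM2 and ADAM3, is made in male germ cells and sits on sperm, where several members have lost the catalytic motif and act in adhesion and in the maturation of the sperm surface. ADAMTS proteases are secreted and cut matrix proteins such as proteoglycans and procollagens, and ADAMTSL proteins resemble them but lack the protease domain. Here the ADAM genes were divided, from this background, into 17 testis ADAM genes (ADAM2, Adam3, ADAM5, ADAM7, ADAM18, ADAM21, ADAM32 and the copies of Adam1a, ADAM20 and ADAM30) and 12 broadly expressed ADAM genes (ADAM8 to ADAM12, Adam15, ADAM17, ADAM19, ADAM22, ADAM23, ADAM28 and ADAM33). Earlier results of these data were known when the classes were chosen, so the contrast between them is descriptive only.

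The table gave FPKM, fragments scaled to gene model length and library depth, without scaling between libraries. The libraries held 11175100 to 11834987 fragments on genes in cattle-yak and 12991641 to 13136129 in yak, so that 1 fragment on 1 kb stood for 0.0761 to 0.0895 FPKM. Calls rest on limma with log2 (FPKM + 1) values and need a log2 (foldchange) beyond 1 together with an adjusted p (Benjamini-Hochberg) under 0.05. Of the 15042 genes tested, 33.4% were called higher and 20.8% were called lower in cattle-yak, and the 3 animals of one group lay wholly above or below the other 3 for 84.1%. The median log2 (foldchange) of the tested genes was 0.51, so a value near 0.51 is the typical gene of these libraries. The marker lists bear on the results below: the 10 Sertoli cell markers (median log2 (foldchange) 2.23), 6 Leydig cell markers and 6 myoid cell markers tested were all called higher, as were 6 of the 7 spermatogonia markers, and all 6 round spermatid and all 6 elongating spermatid markers tested were called lower. Of 7 spermatocyte markers 1 was called higher and 2 lower, of 7 endothelial markers 4 and 1, and of the 2 epididymis markers that passed the filter 1 and 1. In bulk tissue, fewer cells of a type and less RNA per cell cannot be told apart, and the part that cell makeup has in any member's difference was not tested.

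The summed levels of the ADAM and ADAMTS families lay apart, and the 2 sums differed between the groups in opposite directions. Within ADAM, only the testis genes had a lower sum in cattle-yak. The FPKM of the 29 ADAM genes summed to 264 ± 60.3 (SD, n = 3) in cattle-yak and to 1934 ± 203 in yak, whereas the 18 ADAMTS genes summed to 65.6 ± 13.0 in cattle-yak and 27.3 ± 3.01 in yak. The sum over ADAM was 76.2 times the sum over ADAMTS in Yak8, 68.9 times in Yak9 and 68.0 times in Yak10. It was 5.89 times in TES5, 3.13 times in TES6 and 3.50 times in TES7, so the groups did not overlap. Testis ADAM genes made up 96.9% to 97.3% of the ADAM sum in the yak animals. In cattle-yak they made up 38.5% in TES5, 24.0% in TES6 and 13.7% in TES7, and the rest was broadly expressed ADAM.

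Of the 52 members, 46 passed the filter of a mean of 0.5 FPKM over the 6 animals. ADAM7, ADAM28, ADAMTS5, ADAMTS8, ADAMTS14 and ADAMTS19 did not. Of the 46, 14 had a mean under 0.5 FPKM in one group and so passed through the other group only, among them 9 testis ADAM genes and 4 ADAMTS genes. Among the 27 ADAM genes tested, 16 were called lower and 7 higher, against 20.8% and 33.4% of all tested genes, with a median log2 (foldchange) of -2.57. Among the 14 ADAMTS genes tested, 2 were called lower and 4 higher, with a median of 0.60, near that of all genes. Of the 5 ADAMTSL genes, 2 were called lower and none higher (limma, against 1 higher at an unadjusted p under 0.05 and 1 by voom), with a median of -0.74. With no filter and all 52 members in the fit, the calls numbered 11 higher and 20 lower, as with it. The groups did not overlap for 39 of the 46 tested members, a share near the 84.1% of all tested genes.

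**Figure D1:**
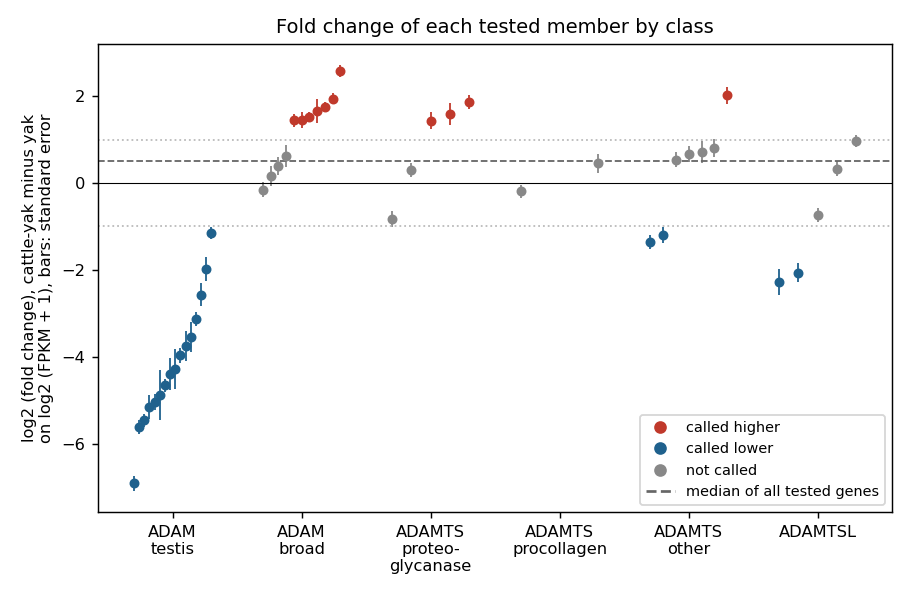
Log2 (foldchange) of cattle-yak against yak on log2 (FPKM + 1) for the 46 tested members, grouped by class on the x axis; points are estimates, bars are standard errors, colours mark calls, dotted lines the threshold of 1 in either direction and the dashed line the median of all tested genes (0.51). All 16 tested testis ADAM genes lie below zero, from -6.92 to -1.15, whereas the 11 broadly expressed ADAM genes range from -0.15 to 2.57 and the 14 ADAMTS genes from -1.36 to 2.02.

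The scale on which the groups are compared moves the members together. When FPKM values were divided by median-of-ratios size factors, which bring the median of all genes to 0.01, 17.7% of the tested genes were called higher and 27.7% lower. On this scale 4 ADAM genes were called higher and 16 lower, 4 ADAMTS genes higher and 3 lower, and no ADAMTSL gene higher and 3 lower. When each library was centred on its 10 Sertoli markers, so that a value is relative to Sertoli RNA, the median of all genes was -1.72, 0.193% of the tested genes were called higher and 73.7% lower. On that scale no member was called higher by limma (none at an unadjusted p under 0.05, and voom was not run on it), and 20 ADAM, 10 ADAMTS and 5 ADAMTSL genes were called lower. The 16 tested testis ADAM genes were called lower on all 3 scales. The calls of higher ADAM and ADAMTS genes are thus relative to the total RNA of the library. The sign of these genes turned on the Sertoli-centred scale except for ADAM8 (0.35, not called). The 1 added to FPKM shrinks the change of low genes but not the Sertoli shift, so their signs on this scale are uncertain. By ratio of means ADAMTS15 (959% of yak), ADAM8 (839%) and ADAM12 (600%) exceeded the median Sertoli marker (548%). The other genes called higher did not.

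**Figure D2:**
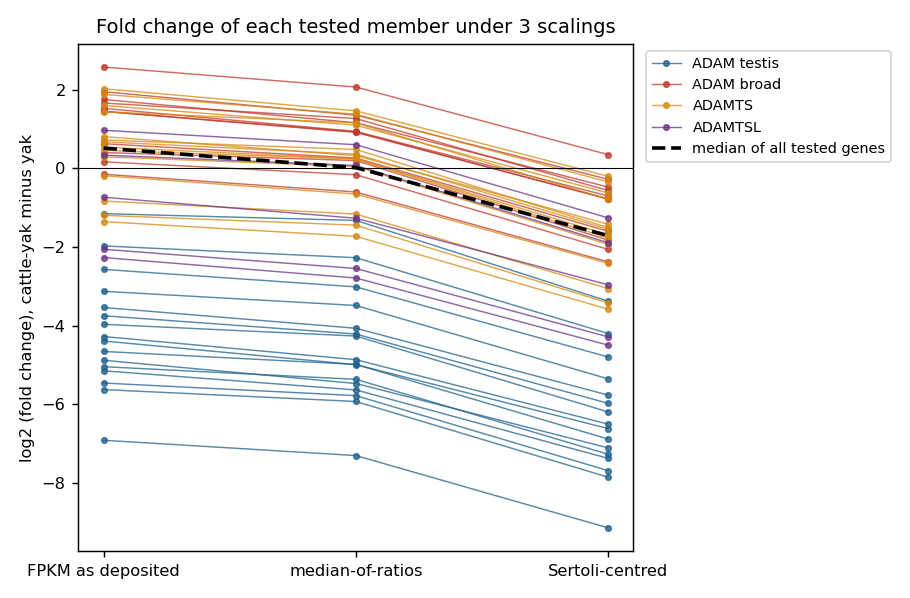
Log2 (foldchange) of cattle-yak against yak for each of the 46 tested members (1 line each, coloured by class) with FPKM as deposited, after median-of-ratios scaling and after centring on 10 Sertoli markers. The thick dashed line is the median of all tested genes, which moves from 0.51 to 0.01 and -1.72; all 16 testis ADAM lines stay below it on each scale.

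In the testis ADAM class, all 16 genes tested were called lower in cattle-yak, against 20.8% of all tested genes. For each of the 16 every cattle-yak animal was below every yak animal. The groups also did not overlap for 84.1% of all tested genes and for 3127 of the 3136 genes called lower. None of the 16 testis ADAM genes was higher by limma, at an unadjusted p under 0.05 or by voom. The sum over the class was 1966 FPKM in Yak8, 1650 in Yak9 and 2022 in Yak10, against 127 in TES5, 60.5 in TES6 and 28.9 in TES7. The yak mean was 26.1 times the cattle-yak mean. Among all 18918 genes ordered by yak mean, Adam3 stood at rank 121, ADAM32 at 126 and ADAM2 at 316, and in cattle-yak these genes stood at 5992, 4523 and 6422.

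ADAM32, a sperm surface protein of testis, had 497 FPKM in Yak8, 511 in Yak9 and 517 in Yak10. In cattle-yak it had 45.0 FPKM in TES5, 22.0 in TES6 and 12.5 in TES7. The yak animals were nearly level, while the cattle-yak animals spread more than 3-fold with TES5 highest and TES7 lowest, and the log2 (foldchange) was -4.39 (SE 0.37, adjusted p 1.08e-05). ADAM2, the beta subunit of the sperm protein fertilin, had 299, 315 and 242 FPKM in Yak8, Yak9 and Yak10. It had 28.2, 15.3 and 5.62 FPKM in TES5, TES6 and TES7. Again TES5 was highest and TES7 lowest of the cattle-yak animals, and the log2 (foldchange) was -4.28 (SE 0.46, adjusted p 4.01e-05).

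Adam3, also called cyritestin and needed in mice for sperm to bind the zona pellucida, was the member with the largest SD of FPKM among yak (245). It had 627 FPKM in Yak8, 233 in Yak9 and 684 in Yak10. In cattle-yak it had 35.4 in TES5, 13.0 in TES6 and 6.70 in TES7. The groups did not overlap, but Yak9 stood at 35.6% of the mean of Yak8 and Yak10. The log2 (foldchange) was -4.88 with the largest standard error of the 16 (SE 0.59, adjusted p 8.14e-05), and it lay between -5.49 and -4.37 when 1 animal at a time was left out. Yak9 was not low for ADAM2 or ADAM32.

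ADAM5, which forms complexes with ADAM3 on mouse sperm, had 77.8, 112 and 110 FPKM in Yak8, Yak9 and Yak10 and 3.16, 1.74 and 0.92 in TES5, TES6 and TES7. Its log2 (foldchange) was -5.15 (SE 0.28, adjusted p 1.01e-06), and Yak8, not Yak9, was the lowest yak. ADAM18, another sperm surface member, had 12.3, 12.5 and 9.24 FPKM in Yak8, Yak9 and Yak10 and 0.54, 0.31 and 0.37 in TES5, TES6 and TES7. The cattle-yak animals lay close together at this low level, and the log2 (foldchange) was -3.13 (SE 0.17, adjusted p 1.01e-06).

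**Figure D3:**
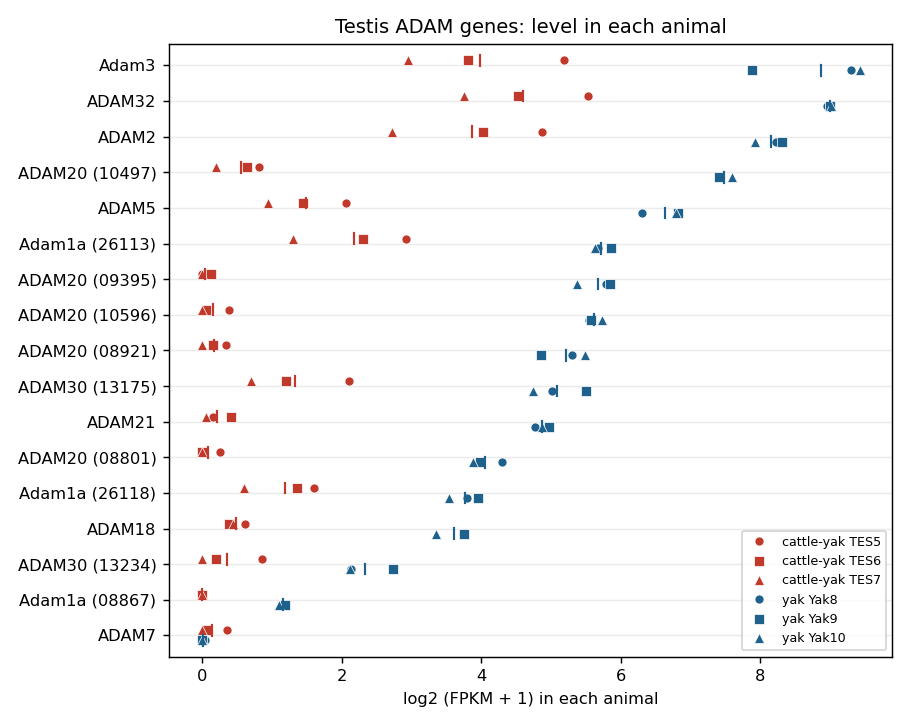
Level of the 17 testis ADAM genes in each animal, as log2 (FPKM + 1) on the x axis; red marks are cattle-yak, blue marks yak, the shape gives the animal and the short vertical line the group mean. Copies that share a symbol carry the last digits of their identifier. For every gene except ADAM7, which is at or near zero in all animals, the red marks lie left of the blue ones, and for most genes TES5 is the rightmost and TES7 the leftmost red mark.

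The 3 Adam1a copies, whose mouse counterpart is an alpha subunit of fertilin in the endoplasmic reticulum of germ cells, differed widely in level. The copy ENSBGRG00000026113 had 49.8, 56.9 and 48.6 FPKM in Yak8, Yak9 and Yak10 and 6.54, 3.96 and 1.47 in TES5, TES6 and TES7. Its log2 (foldchange) was -3.54 (SE 0.35, adjusted p 2.65e-05). The copy ENSBGRG00000026118 had 13.0, 14.5 and 10.6 FPKM in Yak8, Yak9 and Yak10 and 2.04, 1.58 and 0.52 in TES5, TES6 and TES7. Its log2 (foldchange) was -2.57 (SE 0.26, adjusted p 3.15e-05), and its cattle-yak mean of 10.9% of the yak mean was the highest of the 16 tested genes of the class. The third copy, ENSBGRG00000008867, has a model of only 540 bases. It held no fragment in any cattle-yak library and 26 fragments over the yak libraries (1.14 to 1.27 FPKM), which puts yak at least 7.65-fold higher against a floor of 3 fragments over the cattle-yak group. It was called lower, and it fell under the filter when Yak8 or Yak9 was left out.

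ADAM20 and ADAM21 are testis members with an intact protease motif, and apart from the short Adam1a copy at 0 they had the lowest cattle-yak means relative to yak. The most abundant copy, ADAM20 ENSBGRG00000010497, had 171, 168 and 192 FPKM in Yak8, Yak9 and Yak10. In TES5, TES6 and TES7 it had 0.76, 0.56 and 0.16 FPKM, from 38 fragments in all against 15459 in yak. Its log2 (foldchange) of -6.92 (SE 0.17, adjusted p 6.45e-08) was the largest of any member on the log2 (FPKM + 1) scale. The copy ENSBGRG00000009395 had 54.4, 56.7 and 40.4 FPKM in Yak8, Yak9 and Yak10, or 1880 fragments, and 1 fragment over the cattle-yak libraries, in TES6. The depth-scaled ratio of yak to cattle-yak was 1658 with a 95% exact interval of 297 to 65541 that covers counting error only. Its log2 (foldchange) of -5.63 (SE 0.16, adjusted p 9.81e-08) understates this ratio because of the pseudocount of 1.

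The other 3 ADAM20 copies showed the same order of values. The copy ENSBGRG00000010596 had 45.8, 46.4 and 51.8 FPKM in Yak8, Yak9 and Yak10 and 0.31, 0.041 and 0 in TES5, TES6 and TES7 (log2 (foldchange) -5.46, SE 0.15, adjusted p 8.87e-08). The copy ENSBGRG00000008921 had 38.3, 28.0 and 43.8 FPKM in yak and 0.26, 0.12 and 0 in cattle-yak in the same order of animals (-5.05, SE 0.19, adjusted p 2.47e-07). The copy ENSBGRG00000008801 had 18.8, 14.7 and 13.8 FPKM in yak and 0.20, 0 and 0 in cattle-yak (-3.97, SE 0.17, adjusted p 3.94e-07). Summed over the 5 copies, ADAM20 had 328, 314 and 342 FPKM in Yak8, Yak9 and Yak10 and 1.54, 0.82 and 0.15 in TES5, TES6 and TES7. ADAM21 had 26.3, 30.3 and 28.3 FPKM in yak and 0.12, 0.33 and 0.040 in cattle-yak, and here TES6 was the highest cattle-yak animal (-4.66, SE 0.15, adjusted p 1.34e-07).

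ADAM30, another testis member with a protease motif, stood on a high and a low copy. The copy ENSBGRG00000013175 had 31.4, 44.1 and 25.8 FPKM in Yak8, Yak9 and Yak10 and 3.30, 1.30 and 0.62 in TES5, TES6 and TES7 (log2 (foldchange) -3.75, SE 0.35, adjusted p 1.85e-05). Yak9 was the highest yak for it. The copy ENSBGRG00000013234 had 3.37, 5.65 and 3.37 FPKM in yak and 0.82, 0.14 and 0 in cattle-yak, and was called lower at -1.98 (SE 0.27, adjusted p 0.000184). ADAM7, a member known from the epididymis, was not tested, with 9 fragments over the cattle-yak libraries and 1 over the yak libraries.

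By group mean, the residual level set ADAM20 and ADAM21 apart from the other testis ADAM genes except the short Adam1a copy. Single animals overlapped: in TES7, ADAM5 (0.925%) and ADAM30 ENSBGRG00000013234 (0) lay below ADAM20 ENSBGRG00000008801 in TES5 (1.27%). The cattle-yak mean was 0.0623% to 0.578% of the yak mean for the 5 ADAM20 copies and ADAM21, and 1.95% to 10.9% for the other tested genes of the class except the Adam1a copy at 0. The round spermatid marker list stood at 4.18% of its yak level in TES5, 2.04% in TES6 and 0.734% in TES7, and the elongating spermatid list at 0.743%, 0.282% and 0.143%. The spermatocyte list stood at 74.9%, 44.7% and 67.7%. By group mean its 7 markers ranged from 9.10% to 224% of yak, so the sum does not stand for each marker. The summed round spermatid markers ranged from 4.80 to 27.3 FPKM in cattle-yak and 634 to 687 in yak, with SPACA4 at 0 in TES7 and TXNDC2 at 0 in TES6 and TES7. Thus in TES5 the values of ADAM2 (9.88%), ADAM32 (8.85%) and Adam3 (6.88%) lay above the round spermatid list. The ADAM20 copies and ADAM21 had no fixed place beside the elongating list: in TES5 the copy ENSBGRG00000010497 (0.429%) and ADAM21 (0.416%) lay below it and the copy ENSBGRG00000008801 (1.27%) above it, whereas in TES6 ENSBGRG00000010497 (0.318%) and ADAM21 (1.18%) lay above it. Of the 16 tested testis ADAM genes, 11 (68.8%) had TES5 as the highest and TES7 as the lowest cattle-yak animal with TES6 between them. That order was found for 19.2% of all tested genes and 45.4% of the genes called lower, and the round and elongating spermatid lists had it too. Whether the residual germ cells of each animal set this order was not tested.

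**Figure D4:**
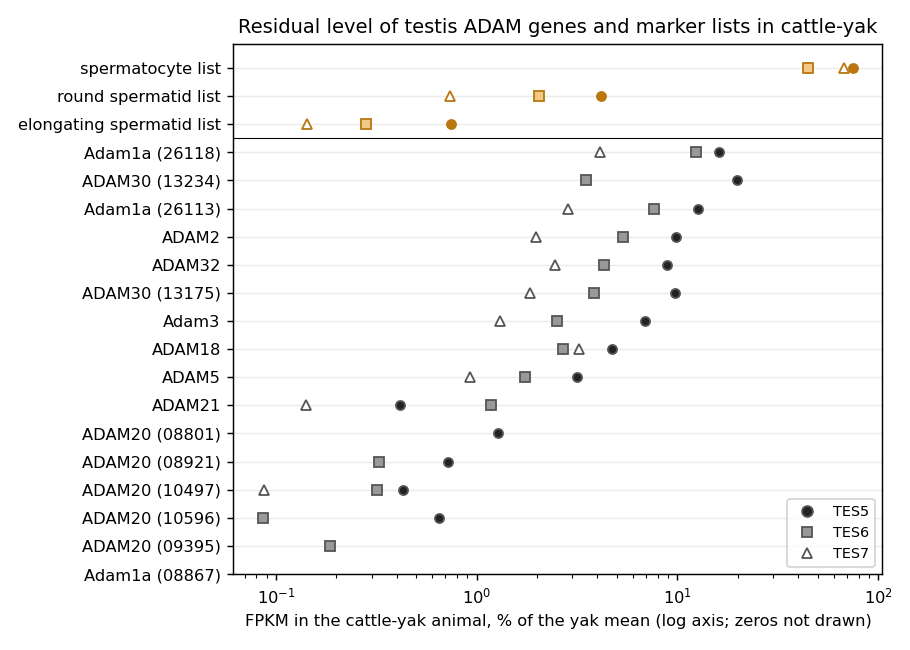
FPKM of each cattle-yak animal as a percentage of the yak mean (log x axis, values of zero not drawn) for the 16 tested testis ADAM genes and, above the line, for the summed spermatocyte, round spermatid and elongating spermatid marker lists. The spermatocyte sum covers markers whose group means range from 9.10% to 224% of yak. The ADAM20 and ADAM21 marks lie at or below 1.27%, whereas the marks of ADAM2, Adam3 and ADAM32 lie between 1.30% and 9.88%, with TES5 to the right and TES7 to the left. The TES7 mark of ADAM5 (0.925%) lies within the range of the ADAM20 and ADAM21 marks.

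The deposited annotation gave a further property that the symbols did not. The GO term for binding of sperm to the zona pellucida was attached to 12 members, namely the 5 ADAM20, 3 Adam1a and 2 ADAM30 copies, ADAM21 and Adam3, and all 12 were called lower. The term was not attached to ADAM2, ADAM5, ADAM18 or ADAM32, which were lower as well, and so the term does not separate members that differ in direction. Metalloendopeptidase activity was attached to 40 of the 52 members. Of the other 12, 5 were the ADAMTSL genes, and 7 (ADAM9, ADAM12, ADAM17, ADAM23, ADAM33, ADAMTS1 and ADAMTS13) include established proteases. The term was also attached to ADAM11, a member without catalytic activity. Its presence or absence is thus no sure guide to catalytic members. The gene models differed too: those of the 17 testis ADAM genes were 540 to 2388 bases long, 15 of them a multiple of 3, and those of the 12 broadly expressed ADAM genes were 2651 to 6424 bases long, 3 of them a multiple of 3, against 53.2% of the 17973 genes with a recovered length. Most testis ADAM models therefore look like coding sequence without UTRs, which affects comparisons of FPKM between genes and not those of 1 gene between animals.

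Broadly expressed ADAM genes as a class summed to 203 FPKM in TES5, 191 in TES6 and 182 in TES7, against 54.1 in Yak8, 52.5 in Yak9 and 57.0 in Yak10. The mean was 3.52-fold higher in cattle-yak, and the groups did not overlap. Among the 11 tested, 7 were called higher and none lower (limma, with none lower at an unadjusted p under 0.05 or by voom). Of all tested genes 33.4% were called higher and 20.8% lower, and 17.7% were called higher on the median-of-ratios scale. The median log2 (foldchange) of the class was 1.45 against 0.51 over all genes. On the median-of-ratios scale 4 of the 7 higher calls held (ADAM8, ADAM10, ADAM11 and ADAM12), whereas Adam15 (0.92), ADAM17 (0.94) and ADAM9 (0.91) came under the threshold of 1.

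ADAM10, the sheddase of Notch receptors and cadherins, had 46.7, 44.7 and 42.9 FPKM in TES5, TES6 and TES7 and 13.1, 11.3 and 13.6 in Yak8, Yak9 and Yak10. The animals of each group lay close together and the groups were well apart (log2 (foldchange) 1.75, SE 0.11, adjusted p 2.07e-06). ADAM17, the TNF-alpha converting enzyme, had 37.2, 30.7 and 36.4 FPKM in cattle-yak and 12.0, 10.9 and 11.4 in yak in the same order of animals (1.52, SE 0.12, adjusted p 5.86e-06). Relative to Sertoli RNA, neither was called, at -0.48 for ADAM10 and -0.71 for ADAM17. Both were above the median of all tested genes on each of the 3 scales.

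ADAM11, a member without catalytic activity that is known from neurons, was the most abundant of the class. It had 66.8, 59.5 and 54.9 FPKM in TES5, TES6 and TES7 and 13.1, 15.5 and 16.2 in Yak8, Yak9 and Yak10 (log2 (foldchange) 1.95, SE 0.12, adjusted p 2.19e-06). ADAM8, a sheddase known from leukocytes, had 19.3, 15.1 and 17.5 FPKM in cattle-yak and 2.12, 2.15 and 1.91 in yak. Its log2 (foldchange) of 2.57 (SE 0.14, adjusted p 1.11e-06), an 8.39-fold ratio of the means, was the largest increase of any member on this scale, while the low gene ADAMTS15 had the larger ratio of means (9.59). The 5 macrophage markers tested did not share a direction: CD68 and CD163 were called higher, AIF1 and CD14 lower, and CSF1R was not called at 0.90. The part of leukocytes in the ADAM8 values was not tested. The other members called higher were ADAM12 (1.66), Adam15 (1.45) and ADAM9 (1.44), which are widely expressed sheddases and adhesion proteins.

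Of the broadly expressed members that were not called, ADAM19 had overlapping groups with 2.03 to 3.05 FPKM in cattle-yak and 2.65 to 3.34 in yak. ADAM22 and ADAM23, receptors of the secreted protein LGI1 in neurons, also overlapped, at 0.63 to 1.97 against 0.88 to 1.22 FPKM and at 0.43 to 1.27 against 0.22 to 0.47 FPKM. ADAM33 did not overlap (1.52 to 3.58 against 0.96 to 1.10 FPKM) but its log2 (foldchange) of 0.62 was below the threshold with limma, while voom on fragments called it higher. ADAM28, known from lymphocytes, was near the floor with 10 fragments over cattle-yak and 25 over yak.

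**Figure D5:**
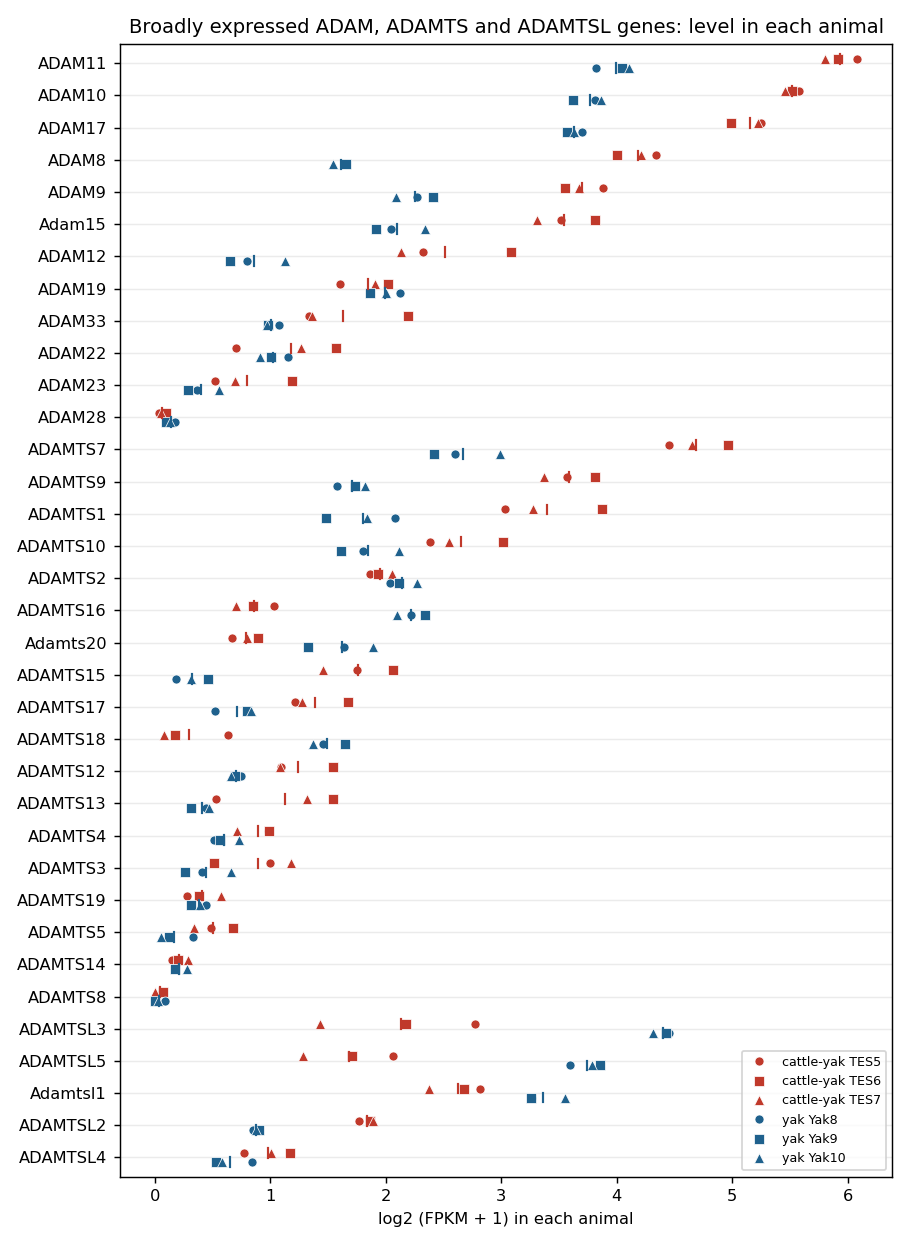
Level of the 12 broadly expressed ADAM, 18 ADAMTS and 5 ADAMTSL genes in each animal, as log2 (FPKM + 1) on the x axis; red marks are cattle-yak, blue marks yak, the shape gives the animal and the short vertical line the group mean. ADAM11, ADAM10 and ADAM17 are the highest in cattle-yak, and red lies right of blue for them and for ADAMTS7, ADAMTS9 and ADAMTS1. Blue lies right of red for ADAMTS16, ADAMTS18, ADAMTSL3 and ADAMTSL5. These levels are relative to total RNA. The order of the means for the first 6 genes flips on the Sertoli-centred log2 (FPKM + 1) scale.

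The ADAMTS genes had group means of at most 25.1 FPKM in cattle-yak and 5.45 FPKM in yak, both those of ADAMTS7. Their sum was 56.0 FPKM in TES5, 80.4 in TES6 and 60.2 in TES7 against 26.5 in Yak8, 24.7 in Yak9 and 30.6 in Yak10, a 2.40-fold higher mean in cattle-yak. Unlike for the testis ADAM genes, TES6 was the highest cattle-yak animal. The summed myoid markers, at 605% of the yak level in TES6 against 451% in TES5 and 458% in TES7, also had TES6 highest. So did the summed Sertoli (583% against 497% and 548%), endothelial (177% against 149% and 105%) and macrophage markers (50.4% against 37.7% and 37.2%). The Leydig, spermatocyte, spermatid and epididymis lists were highest in TES5 and the spermatogonia list in TES7. The part of any cell type in the ADAMTS values was not tested, and the share of all genes with TES6 highest was not counted.

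ADAMTS7, which cuts cartilage oligomeric matrix protein (COMP), was the most abundant ADAMTS and had the largest increase of the family on the log2 (FPKM + 1) scale, while by ratio of means ADAMTS15 (9.59) and ADAMTS9 (4.88) exceeded it. It had 20.9, 30.3 and 24.1 FPKM in TES5, TES6 and TES7 and 5.05, 4.35 and 6.95 in Yak8, Yak9 and Yak10 (log2 (foldchange) 2.02, SE 0.19, adjusted p 2.08e-05). Its groups were far apart, and it made up more of the cattle-yak ADAMTS sum than any other gene. Among the 5 tested proteoglycanases, which cut aggrecan and versican, ADAMTS9 had 10.9, 13.1 and 9.36 FPKM in cattle-yak and 1.98, 2.32 and 2.52 in yak (1.88, SE 0.16, adjusted p 1.15e-05). ADAMTS1 had 7.20, 13.7 and 8.68 FPKM in cattle-yak and 3.23, 1.79 and 2.57 in yak (1.60, SE 0.25, adjusted p 0.000393). ADAMTS15 was called higher as well, at 1.44, from 28 fragments in yak and 236 in cattle-yak. ADAMTS4 (0.29) and Adamts20 (-0.83) were not called, and Adamts20 was called lower on the median-of-ratios scale (-1.17). On the Sertoli-centred scale the 4 genes called higher lay between -0.79 and -0.21 and none was called (limma, and none higher at an unadjusted p under 0.05). The lowest value was that of ADAMTS15, whose change the 1 added to FPKM shrinks because its yak level is low. By ratio of means ADAMTS15 (959% of yak) exceeded the median Sertoli marker (548%), and the other 3 genes did not.

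The 2 ADAMTS genes called lower, against the direction of the other 4 calls, were a related pair. ADAMTS16, a protease of the ovary, kidney and developing gonad, had 1.05, 0.80 and 0.62 FPKM in TES5, TES6 and TES7 and 3.64, 4.06 and 3.29 in Yak8, Yak9 and Yak10 (log2 (foldchange) -1.36, SE 0.16, adjusted p 7.26e-05). ADAMTS18 had 0.55, 0.13 and 0.056 FPKM in cattle-yak and 1.75, 2.14 and 1.58 in yak (-1.20, SE 0.19, adjusted p 0.000487). For both, every cattle-yak animal was below every yak animal, and TES5 was highest and TES7 lowest of the cattle-yak animals. They were called lower on all 3 scales, and both have means under 5 FPKM, so that a filter at 5 FPKM left neither in the test.

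The remaining ADAMTS genes gave no call at the main threshold. The procollagen N-proteases ADAMTS2 (2.63 to 3.15 FPKM in cattle-yak, 3.09 to 3.82 in yak) and ADAMTS3 (0.42 to 1.27 against 0.20 to 0.58) overlapped between groups, and ADAMTS14 was under the filter. ADAMTS10 (0.80) and ADAMTS17 (0.67), which act on fibrillin microfibrils, ADAMTS12 (0.54), a relative of ADAMTS7, and ADAMTS13 (0.72), which cuts von Willebrand factor, had adjusted p values of 0.00741, 0.00933, 0.0205 and 0.0317 but log2 (foldchange) values under 1. With voom on recovered fragments, which adds no pseudocount of 1 FPKM, these 4 were called higher and Adamts20 lower. ADAMTS5, ADAMTS8 and ADAMTS19 held 61, 4 and 51 fragments over cattle-yak and 21, 4 and 53 over yak.

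Among the ADAMTSL genes, ADAMTSL3 had 5.83, 3.53 and 1.70 FPKM in TES5, TES6 and TES7 and 20.9, 20.6 and 18.9 in Yak8, Yak9 and Yak10 (log2 (foldchange) -2.27, SE 0.30, adjusted p 0.000141). ADAMTSL5 had 3.16, 2.26 and 1.43 FPKM in cattle-yak and 11.1, 13.5 and 12.8 in yak (-2.06, SE 0.21, adjusted p 2.92e-05). In both, TES5 was highest and TES7 lowest of the cattle-yak animals, the order of the spermatid lists. That order was also found for 45.4% of all genes called lower and 19.2% of all tested genes. ADAM10 and ADAM11, which were called higher, had it as well. Adamtsl1, also called punctin, had 6.03, 5.41 and 4.19 FPKM in cattle-yak and 8.63, 8.55 and 10.8 in yak, and its log2 (foldchange) of -0.74 (SE 0.16, adjusted p 0.0031) was not a call, though it was one on the median-of-ratios scale (-1.27). ADAMTSL2, which binds fibrillin, stood on the other side at 2.41 to 2.71 against 0.81 to 0.87 FPKM (0.96, adjusted p 0.000254) and was called higher with voom or a pseudocount of 0.1. ADAMTSL4 (0.33) overlapped between groups.

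The genes that act on or with these proteases were listed from textbook knowledge, with earlier results of these data known. Each count below stands against 33.4% of all tested genes called higher and 20.8% called lower. Of 11 tested genes that fold, modify or escort sperm ADAM proteins in mice, 7 were called lower (CMTM2, CLGN, PRSS37, PMIS2, CALR3, PDILT and ACE) and 1 higher. PMIS2 had 455, 497 and 489 FPKM in Yak8, Yak9 and Yak10 and 2.94, 0.78 and 0.999 in TES5, TES6 and TES7, the largest decrease of the list (log2 (foldchange) -7.64, SE 0.27, adjusted p 1.79e-07). The gene called higher was TPST2, a tyrosylprotein sulfotransferase, at 11.6, 13.2 and 11.7 FPKM in cattle-yak and 4.24, 5.16 and 5.80 in yak (1.12, SE 0.14, adjusted p 0.000127), and on the median-of-ratios scale it was not called. CLGN (calmegin), the chaperone of the fertilin subunits, kept 18.2% of its yak level and CALR3, another chaperone, stood at 11.5 to 30.4 FPKM in cattle-yak and 218 to 230 in yak. TEX101, LY6K and PGAP1 were not called, at -0.88, 0.40 and 0.42, though TEX101 was called lower on the median-of-ratios scale (-1.49).

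Of the 5 proprotein convertases, which remove the prodomain that keeps ADAM proteases inactive, PCSK4, the convertase of male germ cells, was called lower (14.1, 8.90 and 4.67 FPKM in TES5, TES6 and TES7 against 179, 187 and 165 in Yak8, Yak9 and Yak10, log2 (foldchange) -4.23, SE 0.30, adjusted p 4.36e-06). PCSK7 (1.46) and FURIN (1.12), which are found in most cells, were called higher, and neither was called on the median-of-ratios scale. PCSK5 (-0.70) and Pcsk6 (-0.22) were not called, though PCSK5 was called lower on that scale.

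Partners of the sheddases numbered 8 tested genes, of which 4 were called higher and none lower (limma, with none lower at an unadjusted p under 0.05 or by voom). Frmd8, which stabilises the iRhom and ADAM17 complex, was the largest with 7.58, 4.53 and 8.20 FPKM in TES5, TES6 and TES7 and 2.08, 1.36 and 1.58 in Yak8, Yak9 and Yak10 (log2 (foldchange) 1.51, SE 0.22, adjusted p 0.00028). TSPAN17 (1.27) and TSPAN33 (1.02), tetraspanins that carry ADAM10, and RHBDF2 (1.07), an iRhom, were the other calls, and only Frmd8 of the 4 was called on the median-of-ratios scale. Among 6 inhibitors, 5 were called higher and none lower (limma, with 1 lower at an unadjusted p under 0.05 and none by voom). A2M, which traps proteases of many classes, rose most (67.2, 97.3 and 82.3 FPKM in TES5, TES6 and TES7, and 13.3, 22.6 and 11.1 in Yak8, Yak9 and Yak10, 2.36, SE 0.25, adjusted p 3.58e-05), TIMP3, the TIMP that inhibits ADAM17 and ADAMTS proteases, reached 178 to 197 against 39.5 to 48.3 FPKM (2.07), and TIMP4 (-0.54) was not called. TIMP2, at 2200.4 to 2398 FPKM in cattle-yak and 428 to 491 in yak (2.30), was above every member in cattle-yak, while in yak Adam3 and ADAM32 had higher means (515 and 508 FPKM). Relative to Sertoli RNA no inhibitor was called in either direction except TIMP4, called lower at -2.76.

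Of 15 tested proteins known to be shed by ADAM10 or ADAM17, 11 were called higher and 2 lower. KITLG, the Sertoli cell ligand of the KIT receptor, rose most (31.5, 35.1 and 20.8 FPKM in TES5, TES6 and TES7 against 4.43, 2.74 and 2.24 in Yak8, Yak9 and Yak10, log2 (foldchange) 2.87, SE 0.25, adjusted p 1.21e-05). The 2 called lower were both EGF receptor ligands, AREG (1.21, 0.098 and 1.33 against 31.3, 20.9 and 36.1 FPKM, -4.06, SE 0.32, adjusted p 7.08e-06) and BTC (-1.16). Of 13 tested ADAMTS substrates, 7 were called higher and 4 lower. VCAN (versican), the proteoglycan cut by ADAMTS1 and ADAMTS9, rose most (17.8, 22.1 and 16.4 FPKM against 0.92, 0.73 and 0.75, 3.45, SE 0.15, adjusted p 4.64e-07), and it was 1 of only 29 genes called higher relative to Sertoli RNA. COMP, the substrate of ADAMTS7, fell most (5.21, 2.32 and 0.84 FPKM against 121, 130 and 124, -5.23, SE 0.37, adjusted p 4.22e-06), and aggrecan (ACAN, -2.02), COL2A1 (-1.88) and VWF (-1.85) were the other 3 called lower. The fibrillar collagens COL1A1 (2.83), Col3a1 (2.65) and COL1A2 (2.59) were higher while the procollagen N-proteases ADAMTS2 and ADAMTS3 were not called. Both glycosylation enzymes of thrombospondin repeats, POFUT2 (0.93) and B3GLCT (0.76), were under the threshold.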

How the data were processed

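Total RNA of testis from 3 cattle-yak and 3 yak was sequenced by the authors as paired-end reads from stranded mRNA libraries. Per their methods, Trimmomatic trimmed the reads, HISAT2 aligned both groups to the yak assembly, Cufflinks gave FPKM and HTSeq gave read counts. The deposited FPKM values are per gene model length and library depth, without scaling between libraries, and no sample columns beyond the 6 animals were present. They are whole fragments over length and depth, so which tool gave them is uncertain, and the strand setting is not given in the sources used here. Whole fragments were recovered for 17973 of 18918 genes (tolerance 0.03 fragments). The depths given were estimated as those that make gene model lengths whole numbers. The recovered fragments came to slightly less (11790270 against a depth of 11834987 in TES5).

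The groups were compared by limma (version 3.58.1, R version 4.3.3) with a trended prior, two-sided, using log2 (FPKM + 1) of the 15042 genes averaging 0.5 FPKM or more, with Benjamini-Hochberg adjustment over all of them, and genes were called at an adjusted p under 0.05 and a log2 (foldchange) beyond 1. Fold changes on this scale understate those of low genes. The code was tested on simulated data. Summaries used Python 3.11.15, numpy 2.4.6, pandas 2.3.3, scipy 1.17.1 and matplotlib 3.10.9. Alternatives were a pseudocount of 0.1, no filter or one at 5 FPKM, median-of-ratios scaling, centring on Sertoli markers, no trend, no fold threshold, voom on fragments, and leaving out each animal.

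Named with full values were members called beyond 2 on the log2 scale, the 3 most abundant of each class, calls against their class, and ADAM2, Adam3, ADAM10 and ADAM17. Other lists were counted, with the largest change in each direction, and further genes of them were named after their values were seen. The members, classes and lists were chosen with earlier results of these data known. Protein and promoter sequences, histology and splicing were not analysed here.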

Additional observations from a re-analysis of the deposited data

How the results depend on the processing

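Calls of lower ADAM genes were stable in number: 15 to 16 when 1 animal was left out, 14 with the filter at 5 FPKM, 20 with Sertoli centring and 16 with each other alternative. The 15 came without Yak8 or Yak9, when the short Adam1a copy fell under the filter. The higher calls numbered 7 in every case of leaving out 1 animal for ADAM and 4 to 5 for ADAMTS, and lower ADAMTS calls numbered 2 in each. A filter at 5 FPKM left 0 ADAMTS genes called lower by limma, since neither ADAMTS16 nor ADAMTS18 passed it. Median-of-ratios scaling left 4 ADAM genes called higher. Without the fold threshold and with voom on fragments, 8 ADAMTS genes were called higher. Centring on Sertoli markers left 0 ADAM and 0 ADAMTS genes called higher and 10 ADAMTS genes called lower, by its construction, since it moves every gene down relative to the deposited scale.

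On that scale the sign turned for the ADAMTS median (-1.62) and for 21 members: ADAM9 (-0.78), ADAM10 (-0.48), ADAM11 (-0.28), ADAM12 (-0.57), Adam15 (-0.78), ADAM17 (-0.71), ADAM22 (-2.07), ADAM23 (-1.83), ADAM33 (-1.60), ADAMTS1 (-0.63), ADAMTS3 (-1.77), ADAMTS4 (-1.94), ADAMTS7 (-0.21), ADAMTS9 (-0.35), ADAMTS10 (-1.42), ADAMTS12 (-1.69), ADAMTS13 (-1.51), ADAMTS15 (-0.79), ADAMTS17 (-1.55), ADAMTSL2 (-1.26) and ADAMTSL4 (-1.89). These signs hold on log2 (FPKM + 1), where the added 1 shrinks the change of low genes but not the Sertoli shift. By ratio of means ADAM12 (600% of yak) and ADAMTS15 (959%) exceeded the median Sertoli marker (548%), and the others of the 21 did not. ADAM22, near zero, also turned under median-of-ratios scaling (-0.17) and ranged from -0.03 (without TES6) to 0.40 when 1 animal was left out. No testis ADAM gene turned under any alternative that tested it. Over all genes voom called 5966 higher and 3416 lower against 5023 and 3136. The depth limits the low members: 1 or 0 fragments in cattle-yak bound 1 ADAM20 and 1 Adam1a copy only loosely. No paired analysis was possible because the labels give the groups no shared animal numbers.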

Other observations

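The low value of Adam3 in Yak9 was set beside all genes. Among 2615 genes with a yak mean of at least 50 FPKM, 4 stood at or below 35.6% of the mean of the other yak animals in Yak9. Adam3 itself is 1 of these 4. By the same measure 1 gene stood as low in Yak8 and 1 in Yak10. The cause was not tested.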
